A study of Mus musculus with 27 samples.

Results

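Divergent promoter pairs are places where 2 genes start close together and are read away from each other, 1 from each DNA strand. They were found here among the 20156 RefSeq genes of the expression tables by position alone: the 2 genes lie on the same chromosome and opposite strands, and the transcription start site (TSS) of the minus-strand gene lies 1 to 1000 bp below that of the plus-strand gene. The rule gave 787 pairs with 1569 genes, which is 7.78% of all genes, and 5 of these genes are in 2 pairs. Because a pair is named minus-strand gene first, Col4a1/Col4a2 means that Col4a1 is read to the left and Col4a2 to the right. The 787 pairs sit at 785 distinct positions, since AK010878/Ubr7 has 2 rows and Gm3448 and Gm3417 share 1 position opposite 9030025P20Rik. The genes 2-Sep and 15-Sep are printed as the tables spell them.

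In a divergent pair the DNA between the starts serves as the upstream region of both genes. Such promoters are common in mammals, are mostly rich in CpG and without a TATA box, and are known for housekeeping genes, DNA repair genes, paired histone genes and the collagen IV genes. Nucleosomes, built around histones that include H3, are usually depleted just upstream of an active start. Trimethylation of lysine 4 of H3 (H3K4me3) marks nucleosomes beside active or poised starts, and trimethylation of lysine 27 (H3K27me3) is laid down by Polycomb proteins at repressed genes.

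Mouse embryonic fibroblasts (MEFs), pre-iPSCs and induced pluripotent stem cells (iPSCs) were compared, each with 2 libraries of H3, H3K4me3 and H3K27me3 ChIP-seq after micrococcal nuclease (MNase) digestion and 2 of RNA-seq, 24 libraries in all. The MEFs came from e13.5 embryos that carried an Oct4-GFP transgene and a Rosa26 allele, both hemizygous, on CBA/CaJ, C57BL/6J and 129Sv/Jae backgrounds, and those used for RNA-seq had been kept for no more than 3 passages. Pre-iPSCs are partly reprogrammed cells made from such MEFs with retroviruses for the 4 Yamanaka factors, and iPSCs were derived from them. The study kept 2 stable pre-iPSC clones, the clone behind each library is not given in the sources used here, and pre-iPSCs and iPSCs were grown with LIF on inactivated MEF feeders, for 6 passages before RNA-seq. Replicate 2 is the library titled as a repeat. The study calls its replicates biological, but the sources used here do not say which animals, cultures or clones separate them, so the p-values measure the spread between these samples.

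The calls of nucleosomes held 67362868 to 108211816 reads in the H3 libraries, 12007350 to 13146349 for H3K4me3 and 13224775 to 15222040 for H3K27me3. The expression tables hold FPKM and no read totals, so no counting interval is given for RNA. All 10 fibroblast markers were at 1 FPKM or more (fragments scaled to transcript length and library size) in all 6 RNA-seq libraries, with a summed level of 9681 and 16742 FPKM in MEFs, 1518 and 1522 for pre-iPSCs and 506 and 723 for iPSCs. All 10 pluripotency markers were at 1 FPKM or more in both iPSC libraries, 5 and 4 of them in pre-iPSCs and none in MEFs. Those of pre-iPSCs include Pou5f1 (Oct4), at 378 and 3184 FPKM, which is 1 of the 4 Yamanaka factors. RNA of the retrovirus and of the cell's own gene were not told apart. Nanog, Zfp42, Esrrb, Dppa3 and Dppa4 were at most 0.519 FPKM in pre-iPSCs. Of the 5 epithelial markers, 1 reached 1 FPKM in each MEF library, 5 and 4 did in pre-iPSCs, and all 5 did in iPSCs. Whether feeder RNA has a part in any result below was not tested.

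Some libraries stood apart. Replicate 1 of H3 in pre-iPSCs, and less so in iPSCs, had taller H3 peaks beside TSSs than the other 4 H3 libraries, so the comparisons of H3 ratios are also given without pre-iPSC replicate 1. In replicate 1 of iPSCs, chromosome 8 held 7.73% of the H3 reads around TSSs, 7.64% of those of H3K4me3 and 7.13% of those of H3K27me3, against 4.61 to 5.67% in every other library. The RNA-seq of iPSCs differed in the same way, with a median log2 difference of replicate 1 minus replicate 2 of 0.56 over 630 expressed genes of chromosome 8 and of 0.02 over 10404 genes of chromosomes other than 8 and X. Chromosome X held 1.91 to 2.82% of the TSS reads in MEFs and 1.26 to 1.94% in pre-iPSCs and iPSCs. Results for pairs on chromosomes 8 and X are therefore given apart below.

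The TSSs of a pair lay a median of 191 bp apart, with quartiles of 95.5 and 348.5 bp. A distance of 1 to 100 bp was found in 205 pairs, of over 100 to 250 bp in 264, of over 250 to 500 bp in 197 and of over 500 to 1000 bp in 121. The limit of 1000 bp cut through a thin tail, with 14 pairs in the last 100 bp inside it and 16 opposite-strand pairs in the next 100 bp outside it. The range of architectures is shown by 6 pairs that return in the results, each printed from 20 bp before the lower TSS to 20 bp after the upper TSS. They are plus-strand sequences of mm9, and capitals mark a match to 1 of the motifs searched.
Col4a1/Col4a2, chr8:11312806-11312849: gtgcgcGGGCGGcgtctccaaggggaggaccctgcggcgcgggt
Tmem111/Fancd2, chr6:113481612-113481696: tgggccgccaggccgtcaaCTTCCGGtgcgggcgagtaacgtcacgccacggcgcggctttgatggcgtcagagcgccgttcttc
Zswim7/Ttc19, chr11:62094877-62094995: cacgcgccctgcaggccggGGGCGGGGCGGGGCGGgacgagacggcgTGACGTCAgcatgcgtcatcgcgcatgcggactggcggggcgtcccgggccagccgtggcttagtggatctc
Spa17/Siae, chr9:37421285-37421452: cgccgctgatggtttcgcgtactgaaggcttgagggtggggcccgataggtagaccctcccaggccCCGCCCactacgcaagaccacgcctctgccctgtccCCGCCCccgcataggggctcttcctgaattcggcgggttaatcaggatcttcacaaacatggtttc
Ribc1/Smc1a, chrX:148450818-148450991: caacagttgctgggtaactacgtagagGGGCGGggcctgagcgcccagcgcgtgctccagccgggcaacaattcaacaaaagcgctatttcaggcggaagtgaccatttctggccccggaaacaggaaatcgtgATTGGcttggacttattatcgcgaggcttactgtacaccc
Cdr2/4933427G17Rik, chr7:128125806-128126043: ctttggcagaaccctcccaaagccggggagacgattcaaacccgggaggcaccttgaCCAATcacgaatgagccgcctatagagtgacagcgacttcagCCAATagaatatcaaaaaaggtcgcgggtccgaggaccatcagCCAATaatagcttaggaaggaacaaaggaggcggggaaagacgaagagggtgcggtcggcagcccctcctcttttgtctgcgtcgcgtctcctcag
The Col4a1/Col4a2 starts are 3 bp apart, so both genes start inside the same 44 bases, whose only motif was a GC box. Tmem111/Fancd2, 44 bp apart, held an ETS motif, and Zswim7/Ttc19, 78 bp apart, held 3 overlapping GC boxes and a CRE. Spa17/Siae held 2 GC boxes in inverse orientation, and Ribc1/Smc1a a GC box and an inverse CCAAT box. Cdr2/4933427G17Rik had 3 CCAAT boxes in a row on the same strand. A match is a description of letters and not a site of binding.

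Over all pairs, motifs were counted on both strands of the 300 bp around the midpoint and, for comparison, of the 300 bp around the TSS of 10051 genes that are in no pair and have a mean of 1 FPKM or more, called single expressed promoters here. The share in all 18587 single promoters is given as well. The ETS motif CCGGAAG was found in 30.9% of pairs, against 17.2% of single expressed and 10.6% of all single promoters. The CCAAT box CCAAT was found in 43.2%, against 33.3% and 34.8%, the NRF1 motif in 14.4%, against 9.34% and 5.67%, and the YY1 motif in 4.57%, against 2.77% and 1.57%. The CRE TGACGTCA was found in 4.83%, 3.19% and 2.24%, and the rare palindrome made of TCTCG and its reverse complement in 1.78%, 0.955% and 0.554%. The 3 other motifs did not stand higher in pairs than in single expressed promoters or did so by little: the GC box GGGCGG had 66.8%, 69.4% and 48.9%, the E box CACGTG 9.4%, 9.29% and 7.06%, and the TATA box TATAAA 5.34%, 5.12% and 10.5%. The median GC content was 62% in pairs, 65.7% in single expressed and 60% in all single promoters, and the ratio of observed to expected CpG was 0.855, 0.827 and 0.630. The midpoint of a pair lies upstream of both starts, so single expressed promoters were also read from 250 bp before to 50 bp after the TSS. There ETS was at 17.1%, CCAAT at 37.5%, NRF1 at 9.91%, YY1 at 2.14%, the CRE at 3.34% and the palindrome at 1.02%, all still below the pairs, while the E box at 10.3% and the TATA box at 7% stood above them, and the median GC content was 61.7%.

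The share of pairs with a motif differed with the distance of the starts, in windows of the same length. The share of pairs with ETS was 43.4% at 1 to 100 bp, 35.2% at over 100 to 250 bp, 24.4% at over 250 to 500 bp and 10.7% at over 500 to 1000 bp. The YY1 motif had 9.27%, 4.92%, 2.03% and 0% in the same order. The CCAAT box had 21.0%, 56.1%, 51.8% and 38.8%, and was thus least frequent in the closest pairs. In pairs over 300 bp apart both starts lie outside the 300 bp window, so the shares of the wider classes are those of the DNA between the starts and not at them. These shares describe the pairs and were not tested.

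Some gene families are rich in such pairs. Of 67 histone genes of the tables, 27 (40.3%) are in a divergent pair, and 14 pairs have a histone gene on both sides. The share was 30.3% of 76 genes of mitochondrial ribosomal proteins, 28.6% of 42 genes of complex I of the respiratory chain, 27% of 37 tRNA synthetase genes, 24.0% of 50 DNA repair genes and 23.5% of 34 cell cycle and replication genes. It was 18.4% of 49 proteasome genes and 4.76% of 357 zinc finger genes named Zfp, beside 7.78% of all genes. It was 11.4% of 44 genes whose symbol begins with Col and a number, called the Col list here. That list takes in Col4a3bp, which is not a collagen gene. Of 15 divergent pairs known from textbooks, 9 were found by the rule. No gene on which the study itself centres, such as Nanog, Zfp42 or Col1a1, is a member.

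Most genes of divergent pairs were expressed in all cell types. In the 6 RNA-seq libraries 83.0 to 86.4% of the 1569 genes were at 1 FPKM or more, against 48.8 to 51.9% of the 18587 other genes, and the median level was 7.52 to 8.97 FPKM against 0.843 to 1.21 FPKM. Between 44 and 102 genes of pairs were listed at 0 in a library. Both genes of a pair reached 1 FPKM in 73.2% and 71.0% of pairs in MEFs, 77.0% and 75.3% for pre-iPSCs, and 74.6% and 75.9% for iPSCs, or 74.5% ± 2.13 (SD, n = 6 libraries). Among 229 pairs of neighbours on the same strand, with TSSs at most 5000 bp apart, the share was 32.2% ± 1.94. Among 369 wider opposite-strand pairs, over 1000 and up to 5000 bp apart, it was 50.5% ± 5.26. Both sets leave out genes of divergent pairs, and same-strand neighbours were kept only where the 2 genes do not overlap. The median level per library was 0.447 to 0.903 FPKM in the same-strand neighbours and 4.30 to 6.08 FPKM in the wider pairs. Both sets thus held lower genes than the divergent pairs, and the part of this in the shares was not tested. The divergent pairs were above the same-strand neighbours by 42.3 ± 1.09 percentage points, in 6 of 6 libraries, with a two-sided exact sign-flip permutation test p of 0.03125, the smallest that 6 libraries can give. This test was 1 of 4 of its kind, and the adjusted p was 0.03125 in each. In all 4 the libraries measure the same genes or windows, so the p covers the spread between libraries only and not the choice of the sets. The 2 replicates of a cell type were counted there as separate libraries.

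**Figure D1:**
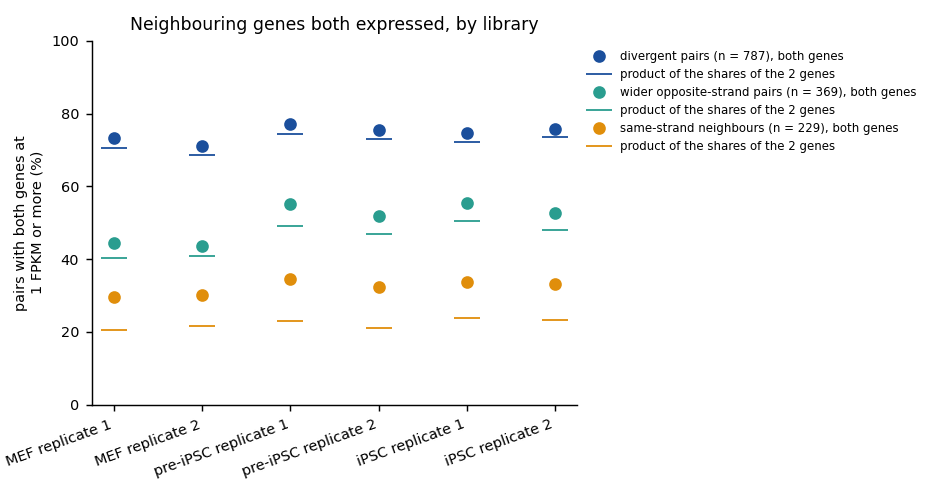
Share of pairs with both genes at 1 FPKM or more (y axis, percent) in each of the 6 RNA-seq libraries (x axis), for 787 divergent pairs, 369 wider opposite-strand pairs and 229 same-strand neighbours; points are libraries and dashes the product of the shares of the 2 genes. Divergent pairs sit at 71.0 to 77.0%, wider pairs at 43.6 to 55.6% and same-strand neighbours at 29.7 to 34.5%, and the dashes of the divergent pairs lie at 68.7 to 74.4%.

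The product of the shares of single genes came close to the measured share. Multiplying the share of expressed minus-strand genes by that of plus-strand genes gave 68.7 to 74.4% in divergent pairs, a little under the measured 71.0 to 77.0%, while same-strand neighbours had a product of 20.6 to 23.9% and a measured 29.7 to 34.5%. The levels of the 2 genes were weakly related across pairs. Pearson's r of log2(FPKM + 1) was 0.145 ± 0.0136 over the 6 libraries and Spearman's rho 0.158 in the divergent pairs, against 0.344 and 0.484 in the same-strand neighbours and 0.127 and 0.194 in the wider pairs. These are correlations across pairs within a library, and pairs are not independent replicates. The r was 0.105 for pairs 1 to 100 bp apart, 0.218 at over 100 to 250 bp, 0.0633 at over 250 to 500 bp and 0.172 at over 500 to 1000 bp, so it had no steady course with distance.

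Over all 6 libraries, 504 pairs had both genes at 1 FPKM or more throughout, 24 had neither gene there in any library, 92 had 1 gene, always the same, and the state of 167 differed between libraries. Both genes were on throughout in 65.9% of pairs at 1 to 100 bp, 69.3% at over 100 to 250 bp, 59.9% at over 250 to 500 bp and 56.2% at over 500 to 1000 bp. The share was 91.7% of the 36 pairs with a YY1 motif and 62.7% of the others, but the former were also closer, with a median distance of 87 bp against 203 bp. It was 71.2% with and 60.8% without ETS, and 62.1% with and 65.5% without a CCAAT box. Within the 504 pairs the same gene was the higher one in all 6 libraries in 328 (65.1%), the minus-strand gene in 168 and the plus-strand gene in 160. The median fold between the 2 genes was 2.76 to 3.42 per library. The genes stayed within 2-fold in all libraries in 29 pairs and were over 10-fold apart in all in 46.

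The textbook pairs show both balance and bias. Hspd1 and Hspe1, the mitochondrial chaperonin and its partner, 216 bp apart, were at 219 and 92.9 FPKM (Hspd1) in MEFs, 132 and 166 for pre-iPSCs, and 75.8 and 217 for iPSCs, and Hspe1 at 211 and 554, 108 and 207, and 164 and 298 FPKM. Both were high in every library. The cell types overlapped for Hspd1. For Hspe1 iPSCs overlapped both other cell types, and MEFs stayed just above pre-iPSCs (211 against 207 FPKM). Mcm4, a subunit of the replicative helicase, was at 46.1 and 18.5 FPKM in MEFs, 56.8 and 17.6 for pre-iPSCs, and 51.7 and 53.2 for iPSCs. Prkdc, the DNA-dependent protein kinase across the 466 bp from it, was at 1.27 and 0.517, 2.25 and 1.25, and 2.32 and 3.29 FPKM. Sirt3, a mitochondrial deacetylase, ranged from 2.14 to 9.04 FPKM and Psmd13, a proteasome subunit 85 bp away, from 46.6 to 72.6 FPKM, so that Psmd13 was the higher gene in all libraries. Atm, the kinase of the DNA damage response, ranged from 0.793 to 3.6 FPKM and Npat, an activator of histone genes, from 3.1 to 8.05 FPKM. Hars and Hars2, the cytoplasmic and mitochondrial histidyl-tRNA synthetases, 75 bp apart, ranged from 35.1 to 61.9 and from 1.26 to 5.11 FPKM. No gene of these 5 pairs was called changed between cell types.

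Sars2, the mitochondrial seryl-tRNA synthetase, was at 6.05 and 5.22 FPKM in MEFs, 10.5 and 7.44 for pre-iPSCs, and 27 and 11.9 for iPSCs, a log2 change of iPSCs against MEFs of 1.52 ± 0.39 (SE, limma adjusted p = 0.0271). Without MEF replicate 1, iPSC replicates 1 and 2 or pre-iPSC replicates 1 and 2 the adjusted p was 0.0708, 0.174, 0.0653, 0.0635 and 0.0617. Its neighbour Mrps12, of the mitochondrial ribosome, ranged from 37.2 to 113 FPKM with overlapping groups. Psmb9, a subunit of the immunoproteasome, was at 0.153 and 0.82 FPKM in MEFs and 2.23 and 2.4 in iPSCs. Its mean in MEFs was 0.486 FPKM, so it passed the filter on low FPKM through the other cell types and no fitted change is given, and its call was lost without MEF replicate 1, iPSC replicate 1 or iPSC replicate 2. Tap1, the peptide transporter opposite Psmb9, ranged from 0.814 to 6.77 FPKM and was not called.

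Nucleosomes were depleted over the shared region. The H3 level within 100 bp of the midpoint, divided by that over 1000 and up to 2000 bp away, was 0.258 and 0.259 in MEFs, 0.383 and 0.177 for pre-iPSCs, and 0.333 and 0.228 for iPSCs. At the TSS of single genes expressed in the same cell type it was 0.357 and 0.378, 0.894 and 0.285, and 0.727 and 0.363. The pairs were lower in 6 of 6 libraries, by 0.228 ± 0.179 on average (two-sided exact sign-flip permutation test, p = 0.03125). With a centre of 50 bp either side the difference was -0.0979 and the exact p 0.0625, so the call depends on the width of the centre. The midpoint of a pair lies upstream of both starts. With single promoters centred 100 bp upstream of the TSS, a setting chosen after the data were seen, their ratio was 0.434 and 0.455, 0.904 and 0.357, and 0.694 and 0.406 in the same order, and the pairs were lower by 0.269 ± 0.143 (exact permutation p = 0.03125). Without pre-iPSC replicate 1 the difference was -0.171, and the exact p of 0.0625 is the smallest that 5 libraries allow. MEFs were digested with another amount of MNase and for another time than pre-iPSCs and iPSCs, so digestion and cell type cannot be told apart in any comparison with MEFs. Across pairs, GC content and H3 reads near the midpoint had a Spearman's rho of -0.175 to -0.200 in MEFs and pre-iPSC replicate 2, of 0.0292 in pre-iPSC replicate 1, and of -0.0853 and -0.151 in the iPSC replicates. Over 10051 single expressed promoters it was -0.0793 in pre-iPSC replicate 1, -0.0824 in iPSC replicate 1 and -0.159 to -0.281 in the other 4 libraries.

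Pairs with starts farther apart more often held a nucleosome between them. With TSSs 1 to 100 bp apart, 2.93 to 9.76% of pairs had the dyad of a called H3 nucleosome of at least 2 reads between them, depending on the library. The share rose to 9.85 to 26.1% at over 100 to 250 bp, 37.6 to 63.5% at over 250 to 500 bp and 81.0 to 95.9% at over 500 to 1000 bp, and in that last class 41.3 to 81.8% held at least 2. Over all pairs of a class, expressed or not, the ratio of centre to flank went from 0.114 to 0.235 in the closest pairs to 0.471 to 0.717 in the widest. Without pre-iPSC replicate 1 it went from 0.114 to 0.212 to 0.471 to 0.604. A pair at over 500 to 1000 bp thus mostly held nucleosomes between its genes, and one under 250 bp mostly did not. The classes are defined by the length between the starts, and a longer stretch has more room for a dyad, so the order of these shares is in part built in. No share per bp was computed, and the part of length in the order of the ratio was not tested. The ratio also went with expression: it was 0.160 to 0.326 in the 504 pairs with both genes on throughout and 0.699 to 1.49 in the 24 with neither, where the region was not depleted or little. Without pre-iPSC replicate 1 these were 0.160 to 0.300 and 0.699 to 0.949.

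**Figure D2:**
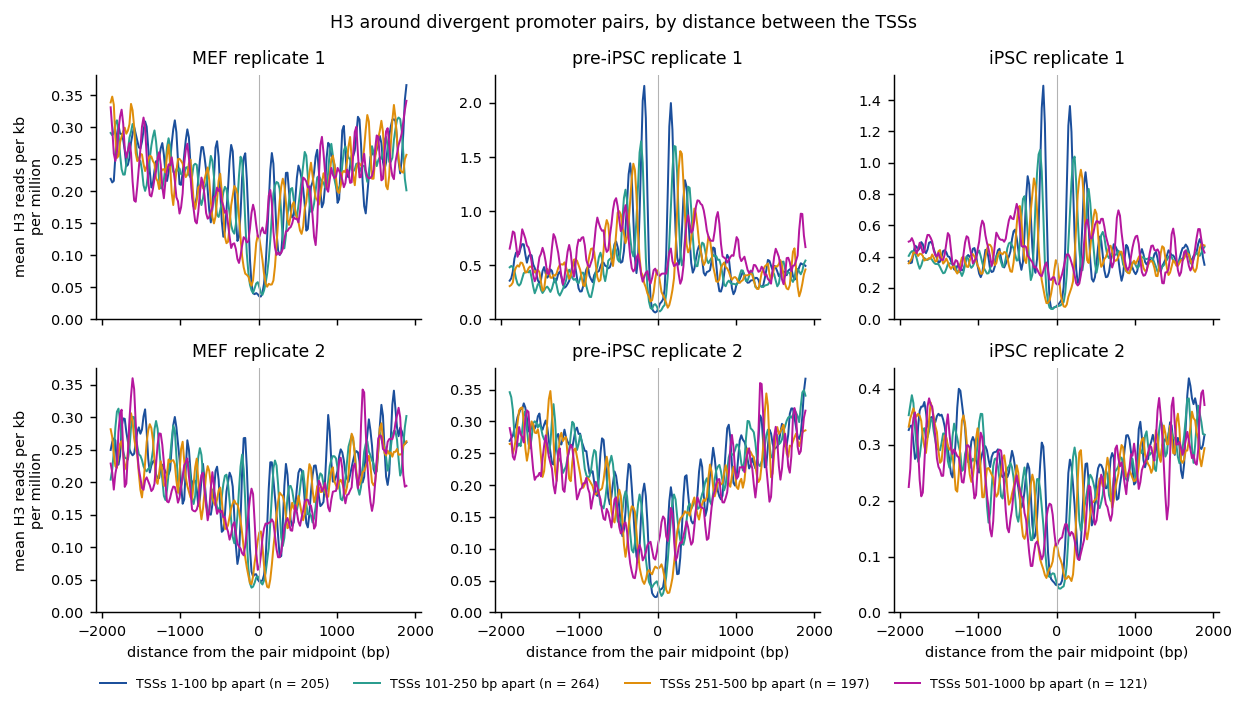
Mean H3 RPKM (y axis, scaled separately in each panel) by distance from the midpoint of the pair in bp (x axis), in the 6 H3 libraries, for pairs with TSSs 1 to 100, over 100 to 250, over 250 to 500 and over 500 to 1000 bp apart. In every library the trough at the midpoint is shallower relative to the flanks in the widest class than in the closest, and replicate 1 of pre-iPSCs and iPSCs has sharper peaks beside it.

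H3K4me3 lay on both sides of the gap. Around all pairs in MEF replicate 1 it peaked at 3.43 RPKM (reads scaled to window length and unique reads) 175 bp below the midpoint and 3.47 RPKM 175 bp above it, whereas single expressed promoters had 2.04 RPKM on the upstream and 4.25 RPKM on the downstream side. The midpoint average mixes pairs of all distances, while single promoters are aligned at the TSS. Aligned at their own TSS in that library, minus-strand genes of pairs peaked downstream at 5.42 RPKM and plus-strand genes at 5.75 RPKM. Aligned so, both stood above the downstream peak of single expressed promoters in every library. Within 2000 bp of the midpoint the median level of expressed pairs was 1.85 and 1.42 RPKM in MEFs, 1.1 and 1.1 for pre-iPSCs, and 1.02 and 1.04 for iPSCs. Single expressed promoters had 1.39 and 1.08, 0.889 and 0.909, and 0.838 and 0.872 RPKM. The pairs were higher in 6 of 6 libraries, by 0.259 ± 0.114 RPKM (two-sided exact sign-flip permutation test, p = 0.03125). The window of a pair covers the downstream sides of 2 genes and that of a single promoter of 1 gene.

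H3K27me3 was low at the pairs. The median was 0.121 and 0.119 RPKM in MEFs, 0.183 and 0.153 for pre-iPSCs, and 0.230 and 0.179 for iPSCs, against 0.242 and 0.265, 0.281 and 0.275, and 0.317 and 0.313 RPKM at all single promoters. The pairs were lower in 6 of 6 libraries, by 0.118 ± 0.0221 RPKM (two-sided exact sign-flip permutation test, p = 0.03125). Since more genes of pairs were expressed, single expressed promoters are the closer comparison, and they had 0.176 ± 0.0133 RPKM in MEFs, 0.227 ± 0.0178 for pre-iPSCs and 0.256 ± 0.0247 for iPSCs (SD, n = 2), against 0.120 ± 0.00143, 0.168 ± 0.0213 and 0.197 ± 0.0469 at expressed pairs. In the 24 pairs with neither gene on, the median was 0.437 to 0.530 RPKM, and H3K4me3 was 0.525 to 0.703 RPKM there, against 1.07 to 1.98 RPKM in pairs with both genes on throughout.

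**Figure D3:**
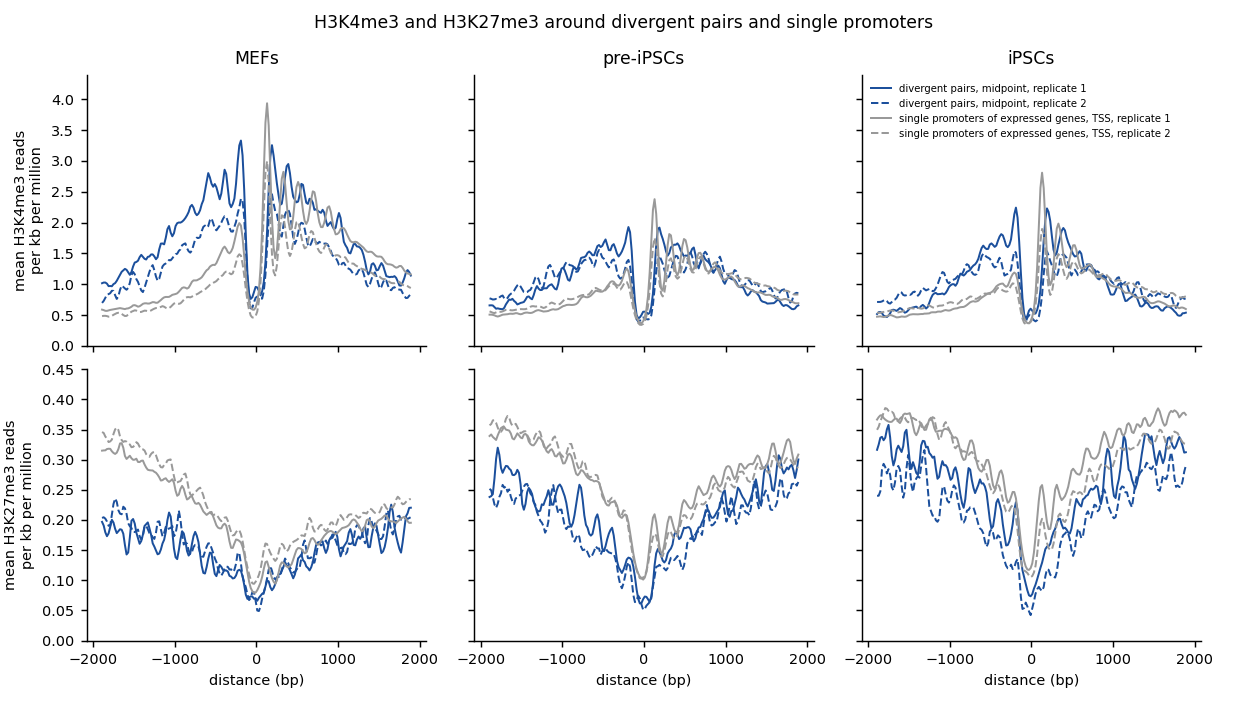
Mean H3K4me3 (upper panels) and H3K27me3 (lower panels) in RPKM (y axis) by distance in bp (x axis) from the midpoint of 787 divergent pairs, in blue, or the TSS of single expressed genes, in grey, with downstream to the right, in MEFs, pre-iPSCs and iPSCs; solid lines are replicate 1 and dashed lines replicate 2. H3K4me3 of pairs has 2 peaks of like height, 3.43 and 3.47 RPKM in MEF replicate 1, and that of single promoters has a downstream peak higher than its upstream one.

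With a level above 1 RPKM within 500 bp of the midpoint taken as marked, the state of nearly all pairs was H3K4me3 alone or neither mark. H3K4me3 alone was found in 712 and 677 pairs in MEFs, 586 and 438 for pre-iPSCs, and 594 and 442 for iPSCs. Both marks were found in at most 2 pairs of a library and H3K27me3 alone in at most 2. Per library, H3K4me3 alone was thus found in 55.7 to 90.5% of pairs, against 28.0 to 52.7% of all single promoters. Both marks were found in 0 to 0.254% of pairs, against 0.468 to 0.968%, and H3K27me3 alone in 0 to 0.254%, against 0.985 to 2.78%. At this threshold these 2 states were rare at single promoters too. Fewer of the single genes were expressed, as given above, and the part of this in the shares of the states was not tested. Of 654 pairs with H3K4me3 alone in both MEF libraries, 384 had it in both iPSC libraries, 66 had neither mark and 204 differed between the iPSC replicates. The median level of the genes was 9.86 and 9.6 FPKM in pairs with H3K4me3 alone in MEFs and 0.150 and 0.145 FPKM in the 49 pairs with neither. In iPSCs, the pairs with neither mark had 3.79 and 3.71 FPKM, so many of them were expressed.

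The 2 flanks of a pair tracked the 2 genes in part. The flank with more H3K4me3 within 1000 bp was that of the gene with the higher FPKM in 55.5 to 60.9% of 711 to 727 pairs per library. Among pairs whose genes differed at least 4-fold the share was 58.2 to 68.8%. Spearman's rho between the log2 ratio of flanks and that of genes was 0.207 to 0.308 across pairs. Within 500 bp instead of 1000 bp the share was 50.3 to 55.3%, close to an even split.

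The share of pair genes called changed was below that of all tested genes in each comparison, a difference that was described and not tested. A gene was called at a limma adjusted p under 0.05 and at least 2-fold, over the 12401 genes with a mean of 0.5 FPKM or more, of which 1406 are in pairs. In pre-iPSCs against MEFs 34 pair genes were higher and 45 lower, or 5.62% of those tested, while 16.4% of all tested genes were called, 7.39% higher and 9% lower. Against pre-iPSCs, iPSCs had 7 higher and 17 lower, or 1.71% against 8.62% of all tested genes (3.91% higher and 4.71% lower), and in iPSCs against MEFs 71 were higher and 107 lower, or 12.7% against 25.9%. In each comparison the called pair genes include some with a mean under 0.5 FPKM in the lower cell type. Those passed the filter through the cell types where they are high, such as Rad9b in pre-iPSCs against MEFs and Hist1h2ak in iPSCs against MEFs. The same filter was used for all tested genes. The 3 comparisons share libraries. After quantile normalization the splits were 44 and 32, 16 and 15, and 129 and 76, so that the direction of the majority depends on the scaling. The median log2 change of the pair genes was -0.01, -0.07 and -0.06 against -0.04, -0.09 and -0.14 over all tested genes. In bulk samples such as these, fewer cells of a type and less RNA per cell cannot be told apart.

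Both genes of a pair were called in few pairs. Both were tested in 647 pairs. In iPSCs against MEFs, 504 pairs had neither gene called, 126 had 1 and 17 had both, of which 12 fell together, 2 rose together and 3 went opposite ways. Both were called in 2.63% of these pairs, in 5.15% of 233 wider pairs and in 7.53% of 93 same-strand neighbours with both genes tested, shares that were not tested against each other. The 2 that rose are the doubly listed AK010878/Ubr7, where Ubr7, a ubiquitin ligase, was at 15.6 and 9.33 FPKM in MEFs and 46.8 and 47.4 in iPSCs, and AK010878 at 8.63 and 9.32 and at 17.1 and 26.5 FPKM. For pre-iPSCs against MEFs 588 pairs had none, 54 had 1 and 5 had both, with 4 falling together and 1 opposite, and in iPSCs against pre-iPSCs 629 had none, 17 had 1 and 1 had both, lower. Across the 647 pairs Pearson's r of the 2 log2 changes was 0.136, 0.269 and 0.183 and Spearman's rho 0.0839, 0.206 and 0.118 in the order pre-iPSCs against MEFs, iPSCs against pre-iPSCs and iPSCs against MEFs. Pearson's r was 0.0844, 0.278 and 0.0765 in the wider pairs and 0.0778, 0.394 and 0.219 in the same-strand neighbours.

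**Figure D4:**
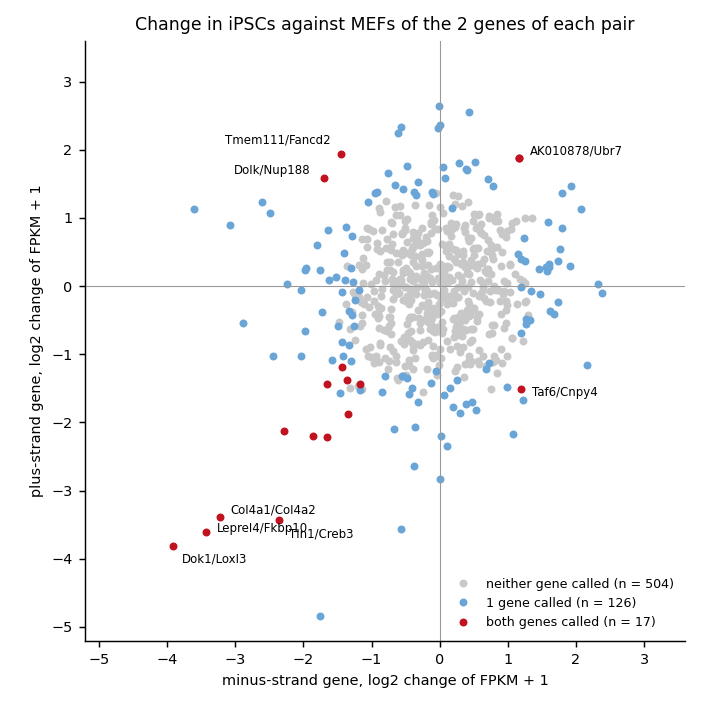
Log2 change of iPSCs against MEFs on the log2(FPKM + 1) scale for the minus-strand gene (x axis) and the plus-strand gene (y axis) of 647 pairs, each point a pair, coloured by whether neither gene (504), 1 gene (126) or both genes (17) were called. Most pairs with 1 called gene lie along an axis, and 12 of the 17 with both lie in the lower left corner.

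Both genes fell in iPSCs against MEFs in 12 pairs, among them the collagen IV pair. They are Col4a1/Col4a2, Dok1/Loxl3, Leprel4/Fkbp10, Tln1/Creb3, Hdlbp/2-Sep, Ppp1r3d/9030418K01Rik, S100a1/S100a13, Cept1/Dram2, Hs2st1/15-Sep, Bag1/Chmp5, Lrrc42/Hspb11 and Tmem176b/Tmem176a. The fibroblast markers fell along with them, as given above. Ppp1r3d had a mean of 1.48 FPKM in MEFs and 0.0739 in iPSCs, so it passed the filter on low FPKM through the cell type where it is high.

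Col4a1 and Col4a2 encode the 2 main chains of basement membrane collagen IV and start 3 bp apart on chromosome 8, in the 44 bases printed above. Col4a1 was at 249 and 111 FPKM in MEFs, 40.5 and 32.9 for pre-iPSCs, and 13.4 and 21.1 for iPSCs. Col4a2 was at 197 and 116, 35.9 and 35.2, and 10.8 and 16.9 FPKM. Both genes fell stepwise without overlap between the cell types and stayed near each other in every library. Against MEFs, pre-iPSCs had log2 changes of -2.16 ± 0.47 and -2.06 ± 0.42 (limma adjusted p = 0.0207 and 0.0162). Those calls ended without pre-iPSC replicate 1 (adjusted p = 0.0942 and 0.106) or 2 (0.113 and 0.110), and after quantile normalization (0.0639 and 0.0546). In iPSCs against MEFs they were -3.23 ± 0.47 and -3.39 ± 0.42 (limma adjusted p = 0.00366 and 0.00212), and without iPSC replicate 1, the library with more of chromosome 8, -2.56 (0.0583) and -2.89 (0.0484).

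The marks at Col4a1/Col4a2 changed as well. H3K27me3 was 0.258 and 0.278 RPKM in MEFs, 0.675 and 0.520 for pre-iPSCs, and 0.850 and 0.686 for iPSCs, so that it was lowest in MEFs without overlap. The log2 change of iPSCs against MEFs was 1.33 ± 0.29 (edgeR adjusted p = 0.00101) and without iPSC replicate 1 it was 1.19 (0.0435). The call ended with DESeq2 (adjusted p = 0.0597) and in a window of 1000 bp either side (log2 change 0.91, adjusted p = 0.114). In pre-iPSCs against MEFs it was 1.06 ± 0.31 (0.0185), and this call ended without MEF replicate 1 (0.0893), MEF replicate 2 (0.0759) or pre-iPSC replicate 1 (0.253), with DESeq2 (0.193) and in the window of 1000 bp (log2 change 0.46, 0.561). H3K4me3 was 3.03 and 1.66 RPKM in MEFs, 1.23 and 1.01 for pre-iPSCs, and 1.97 and 1.1 for iPSCs, with iPSC replicate 1 the higher iPSC library. Its fall in pre-iPSCs against MEFs, -0.73 ± 0.23 (edgeR adjusted p = 0.04), was lost without MEF replicate 1 (0.534) and without pre-iPSC replicates 1 (0.0744) or 2 (0.219), with DESeq2 (0.538), in the window of 1000 bp (0.160) and with calls of at least 2 reads (0.0862). The pair still had H3K4me3 alone as its state in both replicates of all cell types.

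Dok1, an adaptor of receptor tyrosine kinases, and Loxl3, a lysyl oxidase that crosslinks collagen, start 753 bp apart on chromosome 6, at 82983465 and 82984218 of mm9. Dok1 was at 48.7 and 46.8 FPKM in MEFs, 8.99 and 8.22 for pre-iPSCs, and 2.42 and 2.04 for iPSCs, and Loxl3 at 77.4 and 60.6, 12.0 and 7.48, and 3.69 and 4.25 FPKM. The groups did not overlap and both genes had the order MEFs, pre-iPSCs, iPSCs from high to low. In iPSCs against MEFs the log2 changes were -3.92 ± 0.34 and -3.81 ± 0.36 (limma adjusted p = 0.000871 and 0.00111), and both calls held with each library left out in turn. H3K27me3 was 0.121 and 0.0795 RPKM in MEFs, 0.352 and 0.474 for pre-iPSCs, and 0.691 and 0.657 for iPSCs. These are 8 and 6 reads in MEFs, 25 and 31 for pre-iPSCs, and 48 and 44 for iPSCs, without overlap between the cell types. A window with under 10 reads in both libraries of a cell type was tested through the cell types where it is high, so no fitted change is given for it. Only the ratio of summed reads scaled to unique reads is given, with an exact 95% interval for counting error only. Most such windows below were named for their large called changes, so the interval describes the reads and is no test of the change. For Dok1/Loxl3 the ratio was 4.15 (2.28 to 8.06) for pre-iPSCs to MEFs and 6.82 (3.86 to 13.0) for iPSCs to MEFs. H3K4me3 fell from 2.91 and 2.39 RPKM in MEFs to 1.24 and 1.28 in iPSCs (log2 change -0.75 ± 0.20, edgeR adjusted p = 0.00553), and without MEF replicate 1 the adjusted p was 0.0508. With DESeq2 it was 0.0575, and in a window of 1000 bp either side the change was -0.40 (0.249).

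Leprel4 and Fkbp10, 2 endoplasmic reticulum proteins that act on procollagen, start 875 bp apart on chromosome 11, at 100276133 and 100277008 of mm9. Leprel4 was at 69.6 and 73.1 FPKM in MEFs, 45.2 and 71.7 for pre-iPSCs, and 4.8 and 6.77 for iPSCs. Fkbp10 was at 174 and 172, 72.6 and 65.3, and 12.9 and 13.8 FPKM. Leprel4 overlapped between MEFs and pre-iPSCs, and both genes were lowest in iPSCs. The log2 changes of iPSCs against MEFs were -3.43 ± 0.34 and -3.60 ± 0.34 (limma adjusted p = 0.00125 and 0.00108), and both held with each library left out. This is the only pair with both genes called in iPSCs against pre-iPSCs, at -3.11 ± 0.34 and -2.28 ± 0.34 (limma adjusted p = 0.00311 and 0.00822). There the call of Leprel4 ended without iPSC replicate 1 (0.0738) or 2 (0.0671), and that of Fkbp10 without iPSC replicate 1 (0.101) or 2 (0.0876) and without pre-iPSC replicate 1 (0.102) or 2 (0.0726).

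H3K27me3 at Leprel4/Fkbp10 was 0.121 and 0.225 RPKM in MEFs, 0.0985 and 0.0764 for pre-iPSCs, and 0.562 and 0.358 for iPSCs. These are 8 and 17 reads in MEFs, 7 and 5 for pre-iPSCs, and 39 and 24 for iPSCs, highest in iPSCs without overlap. The ratio of summed reads of iPSCs to pre-iPSCs was 5.25 (2.81 to 10.7). The edgeR call of this comparison was lost with DESeq2 (adjusted p = 0.439) and without iPSC replicate 1. H3K4me3 was 2.85 and 1.99 RPKM in MEFs, 1.46 and 1.49 for pre-iPSCs, and 0.916 and 1.30 for iPSCs. Its change in iPSCs against MEFs, -0.80 ± 0.21 (edgeR adjusted p = 0.00482), was lost without MEF replicate 1 (0.0909) or iPSC replicate 1 (0.123) and with DESeq2 (0.0561). In a window of 1000 bp either side it was -0.20 (0.598).

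Tln1, which links integrins to actin, and Creb3, a membrane-bound transcription factor, start 51 bp apart on chromosome 4, at 43575455 and 43575506 of mm9. Tln1 was at 125 and 55.5 FPKM in MEFs, 34.3 and 23.2 for pre-iPSCs, and 15.9 and 14.9 for iPSCs, and Creb3 at 64.9 and 114, 12.7 and 25.1, and 5.2 and 9.57 FPKM. Neither gene overlapped between cell types. The log2 changes of iPSCs against MEFs were -2.36 ± 0.38 and -3.43 ± 0.33 (limma adjusted p = 0.00555 and 0.00112). Creb3 kept its call with each library left out, and Tln1 lost it without iPSC replicate 1 (0.0708).

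**Figure D5:**
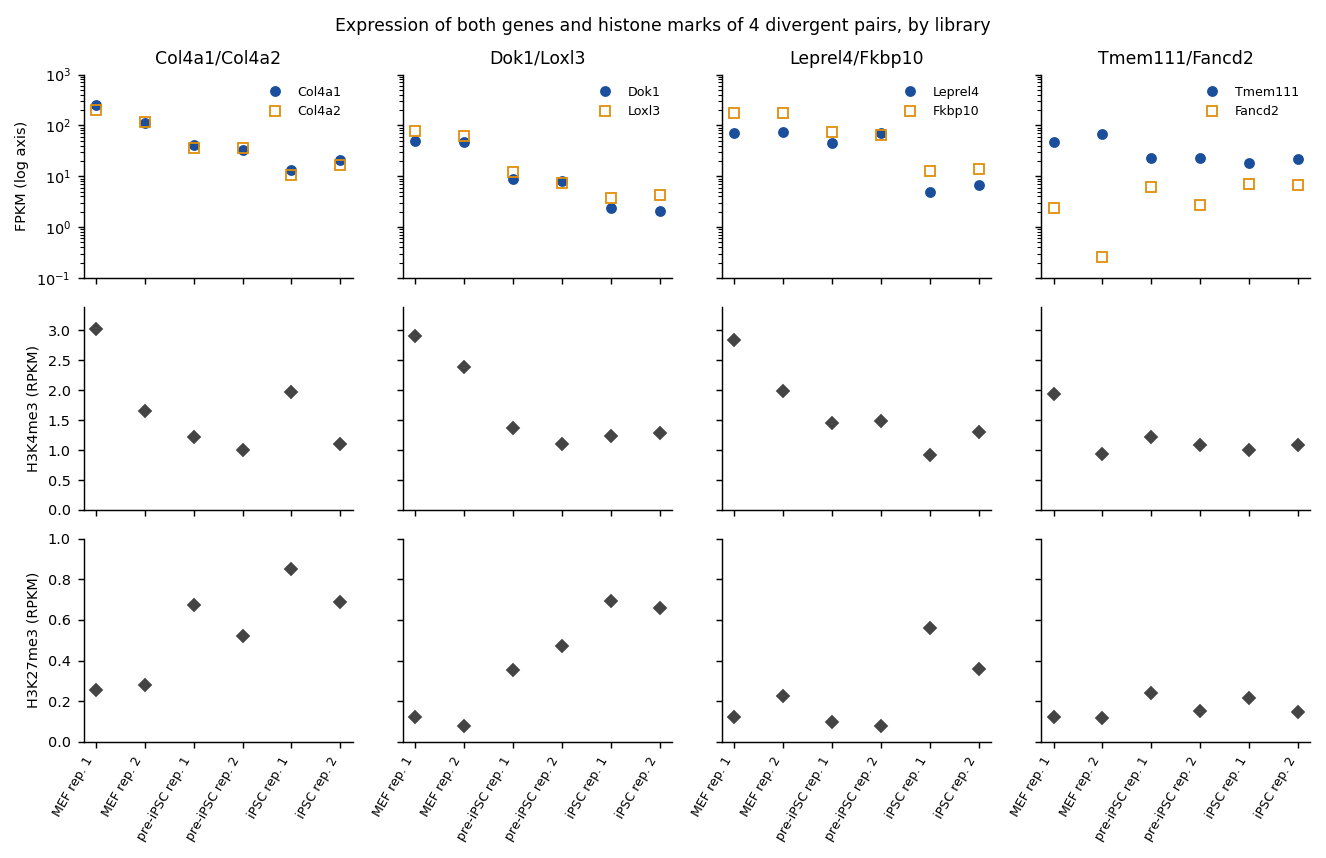
Values of Col4a1/Col4a2, Dok1/Loxl3, Leprel4/Fkbp10 and Tmem111/Fancd2 in each library, with FPKM of both genes on a log axis in the upper row and H3K4me3 and H3K27me3 in RPKM below; points are replicates 1 and 2 of MEFs, pre-iPSCs and iPSCs. Both genes fall in the first 3 pairs while H3K27me3 is highest in iPSCs, and in Tmem111/Fancd2 the genes go opposite ways.

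In 3 pairs the genes went opposite ways in iPSCs against MEFs. Tmem111, a subunit of the complex that inserts membrane proteins, was at 46.2 and 66.4 FPKM in MEFs, 22.9 and 22.6 for pre-iPSCs, and 18.0 and 21.4 for iPSCs. Fancd2, of the Fanconi anaemia pathway of DNA crosslink repair, starts 44 bp away and was at 2.36 and 0.253, 6.04 and 2.71, and 6.91 and 6.83 FPKM. Neither gene overlapped between MEFs and iPSCs, and the changes were -1.45 ± 0.34 and 1.94 ± 0.44 on the log2 scale (limma adjusted p = 0.0207 and 0.0185). No change was called in the shared window, with H3K4me3 at 1.93 and 0.939 RPKM in MEFs and 1.01 and 1.09 in iPSCs (log2 change -0.11 ± 0.22, edgeR adjusted p = 0.734). The call of Tmem111 ended without iPSC replicate 1 (0.107) or 2 (0.103) and without pre-iPSC replicate 1 (0.0598) or 2 (0.0593), and that of Fancd2 without MEF replicate 2 (0.0617), iPSC replicate 1 (0.0555) or iPSC replicate 2 (0.13). After quantile normalization that of Tmem111 ended too (0.0566).

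Dolk, a kinase of glycosylation, was at 8.18 and 12.1 FPKM in MEFs and 2.28 and 2.51 in iPSCs, and Nup188, of the nuclear pore 79 bp away, at 20.9 and 4.43 and at 40.0 and 25.4 FPKM. Taf6, of the general factor TFIID, was at 13.4 and 10.8 FPKM in MEFs and 35.9 and 23.1 in iPSCs, and Cnpy4, 349 bp away, at 30.3 and 31.2 and at 8.43 and 12.1 FPKM. In both pairs the MEF and iPSC libraries of each gene did not overlap. The log2 changes were -1.69 ± 0.38 and 1.59 ± 0.44 for Dolk and Nup188 and 1.20 ± 0.33 and -1.51 ± 0.34 for Taf6 and Cnpy4 (limma adjusted p = 0.0172, 0.0345, 0.0365 and 0.0182). All 4 calls ended without iPSC replicate 1 (adjusted p = 0.105, 0.11, 0.154 and 0.113) and without iPSC replicate 2 (0.108, 0.224, 0.109 and 0.0676). Those of Dolk and Nup188 also ended without MEF replicate 2 (0.0636 and 0.135), that of Taf6 without MEF replicate 1 (0.0756), and those of Taf6 and Cnpy4 without pre-iPSC replicate 1 (0.121 and 0.0504) or 2 (0.121 and 0.0502). Without the table as a replicate block the calls of Nup188 (0.105) and Taf6 (0.0615) ended. The only opposite pair of pre-iPSCs against MEFs was Rad9b/Vps29, of a DNA damage checkpoint clamp and of the retromer. Rad9b was at 0.468 and 0.309 FPKM in MEFs and 2.43 and 3.51 in pre-iPSCs, and Vps29 at 123 and 222 and at 53.5 and 57.5 FPKM. Rad9b was under 0.5 FPKM in MEFs and passed the filter on low FPKM through the other cell types, so no fitted change is given for it. That of Vps29 was -1.56 ± 0.38 (limma adjusted p = 0.0323). Its call ended without MEF replicate 2 (0.0592), pre-iPSC replicate 1 (0.221) or 2 (0.481), and iPSC replicate 1 (0.0655) or 2 (0.0664), and after quantile normalization (0.0564).

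In 8 gene families the members called in iPSCs against MEFs ranged from none of 12 complex I genes to 3 of 8 cell cycle and replication genes, all higher, and 2 of 3 genes of the Col list, both lower. In iPSCs against MEFs, 2 of 14 tested histone genes were higher (Hist1h2ak, listed at 0 in MEFs, and Hist1h2bk, log2 change 1.37) and 2 lower (Hist1h2bc, -2.63, and Hist3h2a, -2.20), the histone genes being near-identical copies whose reads are hard to assign and whose main transcripts lack a poly(A) tail. Of 12 tested DNA repair genes, Mutyh (2.36) and Fancd2 (1.94) were higher and none lower, and of 8 cell cycle and replication genes Mcm7 (1.90), Mcm8 (1.38) and Orc1 (1.83) were higher. Of 9 proteasome genes Psmb9 was higher, and of 17 zinc finger genes Zfp473, with none lower in these lists. Hist1h2ak, Psmb9 and Zfp473 had means of 0, 0.486 and 0.212 FPKM in MEFs and of 3.93, 2.31 and 2.71 in iPSCs, so they passed the filter through the cell types where they are high. Of 23 mitochondrial ribosomal genes only Mrpl32 (-1.42) was called, and none of 12 complex I genes was. Of 3 tested genes of the Col list, Col4a1 and Col4a2 were lower. Beside these counts, 25.9% of all tested genes were called in this comparison, 10.3% higher and 15.5% lower. The calls of pre-iPSCs against MEFs were 1 of 14 histone genes, 1 of 12 DNA repair genes (Nthl1, 1.58), 1 of 8 cell cycle and replication genes (Mcm7, 1.41) and the 2 collagens, beside 16.4% of all tested genes, and in iPSCs against pre-iPSCs Mutyh (1.72) alone, beside 8.62%. The lists were chosen with results of these data known and were not tested as lists.

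H3K4me3 at pairs was lower in iPSCs and pre-iPSCs than in MEFs. With edgeR at an adjusted p under 0.05 over 18387 windows, 16 of 780 tested pairs were higher and 175 lower in iPSCs against MEFs, or 24.5%, while 22.2% of all windows were called, 14.3% higher and 7.86% lower. In pre-iPSCs against MEFs 4 were higher and 39 lower, or 5.51% against 8.29% of all windows (5.71% higher and 2.58% lower). Between pre-iPSCs and iPSCs no pair was called by edgeR, 74 had an unadjusted p under 0.05, DESeq2 called 0, and 0.0435% of all windows were called (0.0272% higher and 0.0163% lower). Against MEFs DESeq2 called 15 pairs in iPSCs, 2 higher and 13 lower, and in pre-iPSCs 1 pair, which was higher. With each library left out in turn the edgeR counts moved widely, as given in the closing section, and were lowest without MEF replicate 1. The median log2 change of the pairs was -0.34, -0.23 and -0.10 in these 3 comparisons, against -0.02, -0.02 and 0.01 over all windows. Without the TMM scaling the median of the pairs was -0.66, -0.54 and -0.11 and that over all windows moved to -0.34, -0.32 and 0.00, and the split of calls was 8 and 410, 1 and 208, and 0 and 0. The size of the fall thus depends on the scaling, and its direction was the same in both. Of 17 H3K4me3 calls at the named pairs, 12 were lost with DESeq2 and 8 in a window of 1000 bp either side.

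Single promoters of like level also had lower H3K4me3. When windows were grouped in 4 classes by the quartiles of the pairs' mean H3K4me3, single promoters in the upper 3 classes had median log2 changes of -0.21, -0.23 and -0.24 in iPSCs against MEFs, and the pairs -0.33, -0.37 and -0.30. In the lowest class, which held 13327 single promoters, these had 0.12 and the pairs -0.32. On chromosome X, 0 of 16 pairs were higher and 5 lower, with a median of -0.58, and on chromosome 8, 1 of 54 was higher and none lower, with a median of -0.03. On the other chromosomes 15 of 710 were higher and 170 lower, with a median of -0.35. Of 611 single promoters of X, 11 were higher and 67 lower, with a median of -0.31. On chromosome 8, 236 of 835 single promoters were higher and 7 lower, with a median of 0.31. Of 16161 single promoters of the other chromosomes, 14.7% were higher and 7.40% lower, with a median of -0.01. Without iPSC replicate 1, the library with more of chromosome 8, the median was -0.33 at the 54 pairs of chromosome 8 and -0.35 at those of the other chromosomes. Single promoters then had medians of 0.05 and -0.001.

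The pairs with the largest H3K4me3 changes differ in kind. Abi3/Gngt2, an adaptor of actin remodelling and a transducin gamma subunit 229 bp apart on chromosome 11 (95703753 and 95703982 of mm9), had 0.762 and 0.716 RPKM in MEFs, 1.26 and 1.59 for pre-iPSCs, and 0.698 and 0.938 for iPSCs. Pre-iPSCs stood above both other cell types without overlap, and the log2 change against MEFs was 1.25 ± 0.21 (edgeR adjusted p = 0.000205), held with each library left out. Gngt2 was at 1.56 and 9.11 FPKM in MEFs, 55.6 and 209 for pre-iPSCs, and 9.3 and 7.31 for iPSCs, a log2 change of pre-iPSCs against MEFs of 4.42 ± 0.58 (limma adjusted p = 0.00381) that held with each library left out. Its change of iPSCs against pre-iPSCs was -3.56 ± 0.58 (0.0122, and 0.0809 without iPSC replicate 2). Abi3 was at 0.589 and 1.88, 4.73 and 6.98, and 3.27 and 1.31 FPKM, also highest in pre-iPSCs but not called (1.66 ± 0.48, limma adjusted p = 0.0573). H3K27me3 had the reverse order, 0.591 and 0.702, 0.324 and 0.290, and 0.619 and 0.552 RPKM (log2 change -1.17 ± 0.29 in pre-iPSCs against MEFs, edgeR adjusted p = 0.0053), and that call ended without MEF replicate 2 (0.053) or pre-iPSC replicate 2 (0.0633) and with DESeq2 (0.0974).

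Cd160/Pdzk1, a receptor of lymphocytes and a scaffold protein 714 bp apart, rose from 0.271 and 0.302 RPKM of H3K4me3 in MEFs to 0.683 and 0.823 in iPSCs (log2 change 1.69 ± 0.31, edgeR adjusted p = 0.000186). Tssk3/1700125D06Rik, with a testis kinase, rose from 0.390 and 0.478 to 1.07 and 0.806 RPKM (1.42 ± 0.28, 0.000378). Both calls held with each library left out. The genes of both pairs stayed low, at most 1.53 FPKM in any library, so the mark rose with little or no RNA listed.

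Falls of H3K4me3 were found at Zswim7/Ttc19 and Cdr2/4933427G17Rik in pre-iPSCs and at X-linked pairs in iPSCs. Zswim7/Ttc19 went from 1.54 and 1.08 RPKM in MEFs to 0.491 and 0.601 for pre-iPSCs and 0.714 and 0.823 for iPSCs (pre-iPSCs against MEFs -0.95 ± 0.23, edgeR adjusted p = 0.00653), a call lost without MEF replicate 1 (0.139) or pre-iPSC replicate 1 (0.119) and with DESeq2 (0.191). Neither gene was called, with Ttc19 ranging from 6.36 to 11.0 FPKM. Cdr2/4933427G17Rik went from 2.13 and 1.83 RPKM to 0.951 and 0.714 in pre-iPSCs (-0.93 ± 0.20, edgeR adjusted p = 0.00275), a call lost without pre-iPSC replicate 2 (0.0916) and with DESeq2 (0.0850). Cdr2 itself fell from 31.4 and 34.8 FPKM to 10.4 and 4.01 (limma log2 change -2.17 ± 0.42, adjusted p = 0.0135), which ended without pre-iPSC replicate 2 (0.197), iPSC replicate 1 (0.0535) or iPSC replicate 2 (0.0536). 4933427G17Rik was at most 0.243 FPKM. Hars/Hars2 went from 2.32 and 2.02 RPKM in MEFs to 0.760 and 1.04 in iPSCs (-0.96 ± 0.21, edgeR adjusted p = 0.000975), which held with each library left out.

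Psmd10/Atg4a on chromosome X, of the proteasome and of autophagy, went from 1.03 and 0.955 RPKM of H3K4me3 in MEFs to 0.414 and 0.438 for pre-iPSCs and 0.217 and 0.280 for iPSCs (iPSCs against MEFs -1.68 ± 0.31, edgeR adjusted p = 0.00017). Mtcp1/Brcc3, also on X, went from 1.1 and 0.892 to 0.460 and 0.633 and to 0.326 and 0.362 RPKM (-1.21 ± 0.28, 0.00206). Both calls held with each library left out, and that of Mtcp1/Brcc3 was lost with DESeq2 (adjusted p = 0.0562). The share of X in the reads around TSSs differs between these cell types, as given above. Brcc3 RNA was at 10.6 and 15.1 FPKM in MEFs and 13.0 and 11.9 in iPSCs, with overlap, while Atg4a was at 6.18 and 8.17 FPKM in MEFs and 1.67 and 3.0 in iPSCs.

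H3K27me3 at pairs was higher in pre-iPSCs and iPSCs. In iPSCs against MEFs 84 of 666 tested pairs were higher and 5 lower, or 13.4%, while 15.7% of the 17586 windows were called, 8.86% higher and 6.88% lower. In pre-iPSCs against MEFs 30 were higher and 7 lower (5.56%, against 9.5%, of which 5.04% higher and 4.45% lower), and in iPSCs against pre-iPSCs 5 were higher and none lower (0.751%, against 1.13%, of which 0.904% higher and 0.227% lower). DESeq2 called 10, 2 and 0. The pairs tested were those with enough reads, and the median log2 change over them was 0.55, 0.44 and 0.11, against 0.01, 0.01 and 0.00 over all windows. These counts and medians include windows with under 10 reads in both MEF libraries, such as Fhod1/Slc9a5 below, which were tested through the cell types where they are high. Over all 787 pairs, without a filter, the median was 0.121 and 0.119 RPKM in MEFs and 0.230 and 0.179 in iPSCs. All single promoters had 0.242 and 0.265 in MEFs and 0.317 and 0.313 in iPSCs. The median of the pairs in MEFs is 8 reads in replicate 1 and 9 reads in replicate 2. Windows with under 10 reads in MEFs are thus common among the pairs and not a few exceptions. Their number among the tested pairs was not counted, and the counts and medians of change were not computed without them. Without TMM, where the median was 0.73, 0.54 and 0.20 in the pairs and 0.19, 0.11 and 0.08 over all windows, the splits were 132 and 2, 37 and 3, and 6 and 0. Windows were also grouped in 4 classes by the quartiles of the pairs' mean H3K27me3, as was done above with H3K4me3. The median change in iPSCs against MEFs was then 0.65, 0.65, 0.60 and 0.36 in pairs. In single promoters of the same levels it was 0.40, 0.32, 0.20 and -0.10, and most of these, 12124, fell in the highest class. The levels in question are low: the median pair did not exceed 0.230 RPKM in any library. Of 19 H3K27me3 calls at the named pairs, DESeq2 gave an adjusted p for 14 and lost 10 of them, and of 15 tested in a window of 1000 bp either side 6 were lost.

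On chromosome 8, 19 of 52 tested pairs had more H3K27me3 in iPSCs than in MEFs, with a median log2 change of 1.03 against 0.39 at single promoters of that chromosome. That is 36.5% of the tested pairs, against 18.5% of the 823 single promoters. Without iPSC replicate 1, the library with more of chromosome 8, 4 pairs and 32 of 824 single promoters were higher, with medians of 0.49 and 0.05, and over all chromosomes 22 pairs were called in place of 89. On X none of 9 pairs was higher and 1 lower, with a median of -0.81, while 1 of 520 single promoters of X was higher and 110 lower, with a median of -0.70. On the other chromosomes 65 of 605 were higher and 4 lower, or 10.7% and 0.661%, with a median of 0.54, against 8.48% and 6.95% of single promoters, with a median of -0.02.

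The 2 pairs that lead the rises were on chromosome 8. Fhod1/Slc9a5, a formin and a sodium-proton exchanger 288 bp apart (107871870 and 107872158 of mm9), had 0.0455 and 0.0397 RPKM of H3K27me3 in MEFs, 0.394 and 0.214 for pre-iPSCs, and 0.504 and 0.343 for iPSCs. These are 3 and 3 reads in MEFs, 28 and 14 for pre-iPSCs, and 35 and 23 for iPSCs. The ratio of summed reads to MEFs was 10.0 for iPSCs (4.34 to 28.4) and 7.25 for pre-iPSCs (3.07 to 20.9). Fhod1 was at 11.0 and 4.99 FPKM in MEFs and 6.78 and 3.59 in iPSCs, and Slc9a5 at 2.97 and 1.11 and at 6.62 and 3.17 FPKM, with no call. 1300018I17Rik/Zfp276, 20 bp apart (125778075 and 125778095), had 0.0758 and 0.0662 RPKM in MEFs, 0.324 and 0.122 for pre-iPSCs, and 0.605 and 0.478 for iPSCs, which are 5 and 5 reads in MEFs, 23 and 8 for pre-iPSCs, and 42 and 32 for iPSCs. The ratio of summed reads of iPSCs to MEFs was 7.67 (3.95 to 16.7). For both pairs the summed iPSC reads include replicate 1, the library with more of chromosome 8, and the ratios are not corrected for this. In iPSC replicate 2 alone the levels of 0.343 and 0.478 RPKM were also above both MEF libraries. Zfp276 was at 3.27 and 2.77 FPKM in MEFs and 1.18 and 1.07 in iPSCs and was not called (limma adjusted p = 0.0763), and 1300018I17Rik overlapped between cell types.

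Plcd3/Acbd4, a phospholipase C and an acyl-CoA binding protein 30 bp apart on chromosome 11 (102962972 and 102963002 of mm9), had 0.106 and 0.119 RPKM of H3K27me3 in MEFs, 0.113 and 0.0917 for pre-iPSCs, and 0.418 and 0.478 for iPSCs. Here pre-iPSCs were like MEFs and iPSCs stood apart. These are 7 and 9 reads in MEFs, 8 and 6 for pre-iPSCs, and 29 and 32 for iPSCs. The ratio of summed reads of iPSCs was 3.95 to MEFs (2.25 to 7.35) and 4.36 to pre-iPSCs (2.41 to 8.44). The edgeR call of iPSCs against MEFs was lost with DESeq2 (adjusted p = 0.0963). That against pre-iPSCs was lost with DESeq2 (adjusted p = 0.511) and without iPSC replicate 1 or 2. Plcd3 RNA was highest in pre-iPSCs, at 3.69 and 1.55 FPKM in MEFs, 16.5 and 16.0 for pre-iPSCs, and 2.99 and 1.77 for iPSCs. Its change was 2.32 ± 0.39 in pre-iPSCs against MEFs (limma adjusted p = 0.00855, 0.114 without pre-iPSC replicate 2) and -2.38 ± 0.39 in iPSCs against pre-iPSCs (0.012). The latter ended without pre-iPSC replicate 2 (0.136), iPSC replicate 1 (0.131) or iPSC replicate 2 (0.135). Acbd4, on the other strand, was at 5.71 and 11.7, 10.4 and 15.7, and 3.57 and 3.62 FPKM and was not called.

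Among the few falls of H3K27me3 were Spa17/Siae and Ribc1/Smc1a. Spa17/Siae, a sperm surface protein and a sialic acid esterase 127 bp apart, had 0.439 and 0.411 RPKM in MEFs, 0.309 and 0.199 for pre-iPSCs, and 0.230 and 0.224 for iPSCs (iPSCs against MEFs -1.07 ± 0.34, edgeR adjusted p = 0.0211). The call was lost without MEF replicate 1 (0.0972), iPSC replicate 1 (0.141) or iPSC replicate 2 (0.0971), with DESeq2 (0.279) and without TMM (0.0591). Ribc1/Smc1a, on X, had 0.182 and 0.212 RPKM in MEFs and 0.0720 and 0.0448 in iPSCs, or 12 and 16 against 5 and 3 reads. The ratio of summed reads of iPSCs to MEFs was 0.296 (0.117 to 0.667), and the call was lost without any 1 of these 4 libraries. Smc1a, a subunit of cohesin, was at 27 to 40.1 FPKM in all libraries, and Ribc1 at 0.285 and 0.385 FPKM in MEFs and 2.75 and 2.06 in iPSCs.

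H3 around the pairs was not called changed anywhere: edgeR called 0 of 782 pairs in each comparison and 0% of all windows, and DESeq2 also called 0 pairs. At an unadjusted p under 0.05 there were 9, 2 and 12 pairs in pre-iPSCs against MEFs, iPSCs against pre-iPSCs and iPSCs against MEFs. The median log2 change was 0.15, 0.07 and 0.26, against 0.05, 0.00 and 0.05 over all windows. Without pre-iPSC replicate 2, where replicate 1 is the only pre-iPSC library, 153 pairs were called higher and 58 lower in pre-iPSCs against MEFs.

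Changes of marks and of RNA were weakly related across pairs. With the larger of the 2 genes' changes taken for each pair, Spearman's rho with the change of H3K4me3 was 0.317, 0.194 and 0.284 over 646 pairs in pre-iPSCs against MEFs, iPSCs against pre-iPSCs and iPSCs against MEFs. With the change of H3K27me3 it was -0.199, -0.250 and -0.302 over 538 pairs. The points of a comparison share their libraries, and the values are descriptions.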

How the data were processed

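The study measured nucleosomes by MNase ChIP-seq and RNA by RNA-seq in MEFs, pre-iPSCs and iPSCs, and 18 ChIP-seq and 6 RNA-seq libraries were used here, grouped by their titles. For ChIP-seq the authors used Bowtie 1.0.1 on mm9 (at most 2 mismatches), kept unique reads, shifted them 73 bp to the dyad and ran GeneTrack; the deposited values are the read counts of the called nucleosomes. Calls of at least 2 reads equalled the study's numbers in 18 of 18 libraries, and 74.4 to 83.3% of the unique reads lie in calls. For RNA-seq the authors aligned with TopHat 2.0.4 and computed the deposited FPKM with Cuffdiff 2.0.2, in 1 table per replicate; whether the libraries kept the strand is not given in the sources used here. H3K9me3 was not used here.

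The TSS was taken as Start + 1 on the plus strand and End on the minus strand, in mm9. Reads of a call were placed at its dyad and counted within 2000 bp of the midpoint of a pair or the TSS of a gene in no pair. RPKM were scaled to the unique reads. The windows were compared by the quasi-likelihood test of edgeR 4.0.16 after filterByExpr and TMM scaling, with DESeq2 1.42.0 as an alternative. For RNA, limma 3.58.1 with a trend was fitted to log2(FPKM + 1), with the table as a term, over genes whose mean reached 0.5 FPKM. A fold change on this scale understates that of low genes. All p-values were adjusted by Benjamini and Hochberg over all genes or windows of a comparison. Pairs and single promoters were compared by an exact sign-flip permutation test over the 6 libraries. Each test script was first tested on simulated data that held known changes.

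Sequences and motifs were read from the mm9 genome. The pairs named are the textbook pairs, in each comparison the 3 pairs called in the same and the 3 called in opposite directions with the largest smaller change, the 2 largest rises and falls per mark, and members of 9 functional lists; those that fell together in iPSCs against MEFs, AK010878/Ubr7 and the pairs at shared positions were named after their values were seen, and of the pairs the rule takes Dhx32/Fank1 and Mboat7/Tsen34 are in the closing section. Some genes the rule takes are not reported here. The members and the lists were chosen with earlier results of these data known. Alternatives were other tools, scalings, windows, filters, distances, thresholds and leaving out each library. Software versions were R 4.3.3 and Python 3.11.15, with scipy 1.17.1, pandas 2.3.3 and numpy 2.4.6.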

Additional observations from a re-analysis of the deposited data

How the results depend on the processing

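The differences of pairs and single promoters or same-strand neighbours, the counts of called pairs and pair genes, the correlation of the 2 genes, the mark states and the calls at named genes and pairs were computed again with 1 choice changed at a time, and motif shares, level classes and correlations of marks with RNA were not. No difference and no named change turned its sign. The majority of called pair genes turned from lower to higher after quantile normalization (44 and 32, 16 and 15, and 129 and 76 higher and lower, in the order given next) and, in pre-iPSCs against MEFs, without MEF replicate 2 (61 and 36) or pre-iPSC replicate 2 (14 and 4). The H3 difference of pairs and single promoters at the centre was -0.0979 with a centre of 50 bp either side, with an exact p of 0.0625, and -0.269 (0.03125) with single promoters centred 100 bp upstream, an alternative added after seeing the data. With each library left out in turn the differences of pairs were 42.0 to 42.5 percentage points for both genes expressed, -0.254 to -0.171 for H3, 0.219 to 0.277 RPKM for H3K4me3 and -0.124 to -0.113 RPKM for H3K27me3, where 5 libraries cannot give an exact p under 0.0625.

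Counts of called pair genes or pairs are given in the order pre-iPSCs against MEFs, iPSCs against pre-iPSCs and iPSCs against MEFs. Without the filter on low FPKM, limma called 0, 3 and 25 pair genes in place of 79, 24 and 178, and with each library left out 18 to 212, 0 to 96 and 19 to 291. For H3K4me3 the counts were 43, 0 and 191. DESeq2 gave 1 and 15 and a window of 1000 bp either side 17 and 106 in the first and last comparison, library sizes without TMM 209 and 418, and calls of at least 2 reads 26 in the first; leaving out a library gave 4 to 58, 0 to 7 and 45 to 180. For H3K27me3 the counts were 37, 5 and 89. DESeq2 gave 2, 0 and 10, the window of 1000 bp 5, 3 and 11, calls of at least 2 reads 22, 2 and 43, TSSs at most 500 bp apart 3 in the second, no TMM 134 in the last, and leaving out a library 6 to 30, 0 to 6 and 22 to 94. For H3 the counts of 0 became 0 to 211, 0 to 20 and 0 to 0 with a library left out. The lone library of a cell type is then assumed to vary like the others. The causes were not tested.

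The correlation of the 2 genes of 0.145 was 0.195 with a pseudocount of 0.1, 0.0753 for pairs with both genes at a mean of 0.5 FPKM or more, and 0.141 to 0.148 with a library left out. The mean number of pairs with H3K4me3 alone was 575 at 1 RPKM and 167 at 2 RPKM, and the mean share of pairs whose flank of higher H3K4me3 was that of the higher gene was 59.3% within 1000 bp and 52.7% within 500 bp. Of 75 calls of named genes and pairs, 21 held with each library left out and 54 did not. Of 39 named calls of expression, 32 were lost without the filter on low FPKM, 8 after quantile normalization and 5 without the table as a block.

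What a replicate number shares is not given, and the numbers were not taken as pairs: in the order pre-iPSCs with MEFs, iPSCs with pre-iPSCs and iPSCs with MEFs, the correlations of same-numbered libraries' deviations from the cell type means were -0.0864, 0.838 and -0.0341 for H3, -0.0839, 0.149 and -0.0643 for H3K4me3, -0.0374, 0.140 and -0.0648 for H3K27me3, and 0.346, 0.112 and -0.205 for expression. Those of pre-iPSCs and iPSCs were positive in all 4 assays, and of those with MEFs only 0.346 was. In the fit of expression the block is the deposited table, since each table holds 1 replicate of each cell type. With the number as a replicate block edgeR called 48, 0 and 198 pairs for H3K4me3, 37, 5 and 87 for H3K27me3 and 0, 0 and 0 for H3. Expression without the table as a block gave 73, 28 and 143 pair genes.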

Other observations

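The naming rule takes 2 further pairs for H3K27me3 in pre-iPSCs. Mboat7/Tsen34, a lysophospholipid acyltransferase and a subunit of the tRNA splicing endonuclease 85 bp apart on chromosome 7, had 0.0303 and 0.0265 RPKM in MEFs, 0.155 and 0.168 for pre-iPSCs, and 0.245 and 0.119 for iPSCs. These are 2 and 2 reads in MEFs and 11 and 11 in pre-iPSCs, so the window passed the filter through the cell types where it is high, and no fitted change is given. The ratio of summed reads of pre-iPSCs to MEFs, scaled to unique reads, was 5.7 (exact 95% interval 1.94 to 22.8, counting error only). With the 6 libraries left out in turn, the edgeR call of this comparison was lost for 4 of them. Mboat7 stayed at 14.4 to 26.5 FPKM and Tsen34 at 30.3 to 82.4 FPKM. Dhx32/Fank1, an RNA helicase and an ankyrin repeat protein 88 bp apart, had 0.409 and 0.464 RPKM in MEFs, 0.183 and 0.260 for pre-iPSCs, and 0.302 and 0.373 for iPSCs (pre-iPSCs against MEFs -1.08 ± 0.34, edgeR adjusted p = 0.0295). That call was lost without MEF replicate 1 (0.0675), MEF replicate 2 (0.122), pre-iPSC replicate 1 (0.308) or pre-iPSC replicate 2 (0.0502), with DESeq2 (0.283), without TMM (0.0531) and in a window of 1000 bp either side (0.176). Dhx32 was at 8.31 and 6.37 FPKM in MEFs and 20.6 and 33.8 in pre-iPSCs, while Fank1 was at most 0.447 FPKM in any library.

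On chromosome 8 the 54 pairs had a median log2 change of H3 of 0.67 in iPSCs against MEFs, and on X the 17 pairs had -0.52, beside 0.24 for the 711 pairs of other chromosomes. Single promoters had 0.45, -0.67 and 0.05 in the same order.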
